A study of Homo sapiens with 8 samples.

Results

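HIF-1β was bound in both replicates at 1041 regions of the genome of hypoxic A549 cells, an established lung cancer cell line. A region was taken as a site where peaks of the 2 A549 replicates overlapped by at least 1 bp and were merged. Sites built in the same way numbered 1757 in HCT-116, 970 in PC-3 and 2065 in T47D, of which 1756, 970 and 2062 lay on the main chromosomes and were used for distances, overlaps and motifs. All A549 sites lay on them. A549 contributed 1041 of 5833 sites counted line by line on any sequence and was present in 1041 of 3837 regions merged over the lines.

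Chromatin immunoprecipitation and sequencing (ChIP-seq) was performed with an antibody against HIF-1β (Novus NB100-110) in 4 cancer cell lines, with 2 libraries of each. All cells were kept at 0.5% ambient oxygen for 16 hours. A549 is labelled as lung cancer, and HCT-116, PC-3 and T47D, which derive from colorectal, prostate and breast cancers, served for comparison. The A549 libraries are replicates 2 and 3 of their labels, and nothing says whether they came from separate cultures, so the spread between them may be technical. No normoxic cells and no library without the antibody were analysed here, and 1 line does not stand for lung cancer in general. The lists give peaks without reads, so depth is unknown.

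HIF-1β (ARNT) is the constitutive partner with which the oxygen-regulated subunits HIF-1α and HIF-2α bind DNA, at a core written ACGTG or GCGTG. When oxygen is short the prolyl hydroxylases no longer mark the α subunits for destruction by VHL, and the dimers activate genes for glucose uptake, glycolysis, pH control, angiogenesis and matrix remodelling. HIF-1β also pairs with other proteins of its family, such as the aryl hydrocarbon receptor, so an antibody against it does not tell which dimer was bound.

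Sequences around the core are shown first for A549 promoter sites among the 25 of highest mean score. Only sites with a core in their central 200 bp can be shown in this way, which was 17 of the 25, and the promoter sites of GAPDH, KDM3A and ALDOA had none there. Each is the GRCh37 reference read 5′ to 3′ on the strand of the core nearest the centre of the site, and capitals mark every ACGTG or GCGTG, on either strand. All 8 of these regions also had a site in each of the other lines.
GPI, chr19:34850351-34850379, plus strand: ccaCACGCaCACGCGTGcgcattaccccc
ENO1, chr1:8938895-8938923, plus strand: acggctgcagtaGCGTGgaaaggggggtg
FAM174B, chr15:93352394-93352454, plus strand: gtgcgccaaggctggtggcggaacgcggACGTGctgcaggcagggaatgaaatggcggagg
BHLHE40, chr3:5020945-5021005, minus strand: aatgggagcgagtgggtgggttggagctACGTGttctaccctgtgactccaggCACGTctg
NARF, chr17:80416375-80416403, plus strand: ccccggcgccgtACGTGgagtgagcctgc
LDHA, chr11:18416136-18416164, minus strand: gtcgtcgggggcGCGTGgcaatgagatcc
ANKRD37, chr4:186317672-186317732, minus strand: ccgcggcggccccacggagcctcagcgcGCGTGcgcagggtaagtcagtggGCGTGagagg
SLC16A3, chr17:80188969-80189029, minus strand: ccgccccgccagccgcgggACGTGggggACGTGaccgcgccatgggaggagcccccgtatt

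High-scoring sites away from promoters are shown in the same way, because several of them scored as high as the glycolytic promoters. Of the 15 highest sites over 25 kb from a coding start, 12 had a core in their central 200 bp, and those of SLC2A3, AC092291.2 and NDRG1 had none there. From these 15, sites are shown near a sugar transporter (SLC45A1), a binding protein of insulin-like growth factors (IGFBP3) and a cytokine (LIF). A site near a kinase that drives glycolysis (PFKFB3) is shown as well. The other sites shown lay less than 25 kb from a coding start and were not among the 15. One lay 10437 bp from a subunit of the small nuclear RNA activating complex (SNAPC1). Another lay 12040 bp from an inhibitor of mTORC1 (DDIT4). The EGLN3 site shown here lay 11575 bp from the start of that oxygen-sensing prolyl hydroxylase.
SLC45A1, chr1:8272393-8272453, minus strand: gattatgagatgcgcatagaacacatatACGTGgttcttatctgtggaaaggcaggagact
IGFBP3, chr7:46018023-46018083, minus strand: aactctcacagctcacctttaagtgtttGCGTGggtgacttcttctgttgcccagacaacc
SNAPC1, chr14:62218047-62218107, plus strand: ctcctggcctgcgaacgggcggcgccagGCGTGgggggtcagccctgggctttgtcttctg
DDIT4, chr10:74020748-74020808, minus strand: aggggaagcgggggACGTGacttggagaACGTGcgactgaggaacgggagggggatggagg
EGLN3, chr14:34407677-34407737, plus strand: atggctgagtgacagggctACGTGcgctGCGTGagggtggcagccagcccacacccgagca
LIF, chr22:30592405-30592465, minus strand: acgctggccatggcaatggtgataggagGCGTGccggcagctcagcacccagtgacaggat
PFKFB3, chr10:6341351-6341411, minus strand: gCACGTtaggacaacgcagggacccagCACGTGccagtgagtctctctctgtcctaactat

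The last sequences belong to high-scoring A549 sites that overlapped no peak in any of the 6 libraries of the other lines, and are shown to compare them with the shared sites. Of the 15 highest of these, 12 had a core in their central 200 bp, and those of CCR7, PDE10A and SBK2 had none there. Among those shown, the distance of the nearest core from the centre ranged from 3 bp at DAPK1 and at MAFK to 83 bp at the first of the PDE4D sites.
WDR72, chr15:54123329-54123389, plus strand: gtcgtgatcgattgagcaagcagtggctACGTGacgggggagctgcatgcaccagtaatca
EGLN3, distal, chr14:34532862-34532922, plus strand: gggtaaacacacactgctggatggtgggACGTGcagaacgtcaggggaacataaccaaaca
PON1, chr7:94893612-94893672, minus strand: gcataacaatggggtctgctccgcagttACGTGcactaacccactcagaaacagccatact
EFNA5, chr5:106701455-106701515, minus strand: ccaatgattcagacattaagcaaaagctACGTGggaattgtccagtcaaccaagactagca
DAPK1, chr9:89987514-89987574, plus strand: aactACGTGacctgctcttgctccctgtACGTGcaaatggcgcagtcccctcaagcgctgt
MAFK, chr7:1560477-1560537, plus strand: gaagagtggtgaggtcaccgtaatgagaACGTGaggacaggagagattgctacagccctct
PDE4D, first, chr5:58419675-58419735, plus strand: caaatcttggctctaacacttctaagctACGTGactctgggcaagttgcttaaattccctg
PDE4D, next, chr5:58412436-58412496, minus strand: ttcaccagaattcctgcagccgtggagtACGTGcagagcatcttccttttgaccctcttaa
PDE7B, chr6:136336160-136336220, minus strand: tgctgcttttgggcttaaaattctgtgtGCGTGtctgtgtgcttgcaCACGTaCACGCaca

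The 2 A549 lists held 1768 and 1270 peaks, against 1042 to 3790 in the other lines. In replicate 2, 1043 peaks overlapped a peak of replicate 3, and the 725 that did not had a median score of 65.5, against 153 for those that did. In replicate 3 only 228 peaks stood alone, with a median score of 58.8 against 113. The score is a value that the peak caller gives each peak, and the lists do not define it. Between lines it was compared only by rank, and within A549 the scores of both replicates are given as deposited.

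At the 1041 sites the scores of the replicates had a Spearman correlation of 0.759, a description across sites that share their libraries. Mean scores ranged from 50.5 to 3100 with a median of 134, and 29 sites exceeded 1000. Replicate 2 had the higher score at 765 sites, at 69.9% of the 335 sites within 2 kb of a coding start and at 75.2% of the 706 farther away. BNIP3L, whose product removes mitochondria, went the other way, with scores of 339 in replicate 2 and 1072 in replicate 3.

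**Figure D1:**
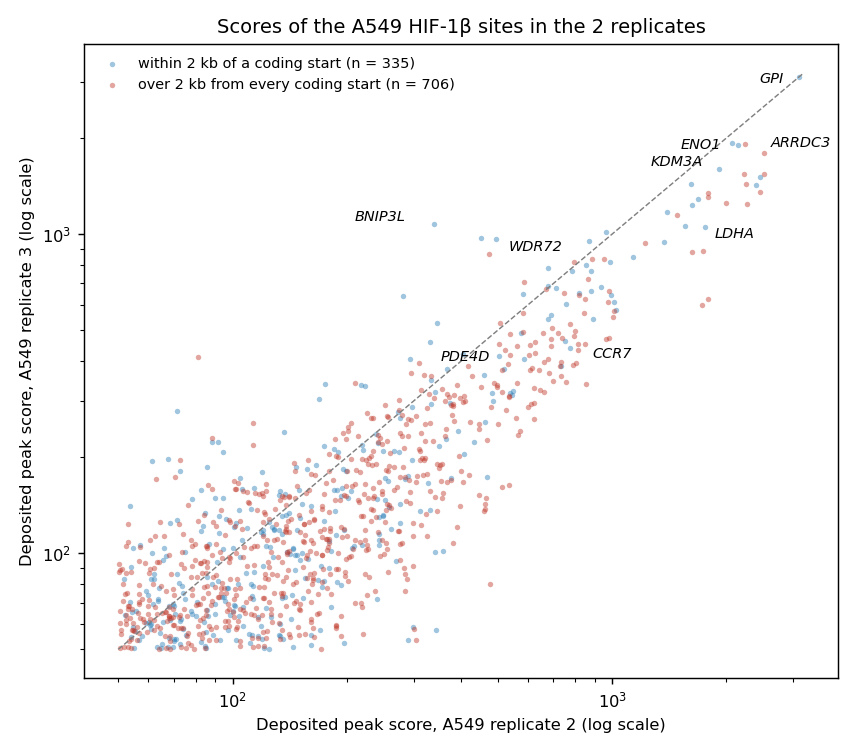
Each point is 1 of the 1041 A549 sites, with its score in replicate 2 on the horizontal axis and in replicate 3 on the vertical axis, both logarithmic, and the dashed line marks equal scores. GPI has the highest score in both replicates (3100), most points lie below the line (765 of 1041), and sites over 2 kb from a coding start, in red, are found among the highest scores beside promoter sites, in blue.

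Distance to genes was measured from a site to the nearest transcription start of a protein-coding gene. In A549, 269 sites (25.8%, 95% exact binomial interval 23.2 to 28.6%) covered such a start and 335 (32.2%, 29.3 to 35.1%) lay within 2 kb of one. A further 304 sites (29.2%) lay 2 to 25 kb away, 255 (24.5%) 25 to 100 kb away and 147 (14.1%) farther still. The median distance was 13375 bp, against 6200 bp in PC-3 and 0 bp in HCT-116 and T47D. These intervals cover counting error only, since sites of a line are not independent replicates. By protein-coding genes alone, the centre of 48.6% of A549 sites lay outside genes, that of 39.5% was intronic and that of 11.9% exonic. A centre inside a noncoding gene counts here as outside genes. The sites had 865 different nearest genes.

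Among single libraries, 30.9% and 31.6% of A549 peaks lay within 2 kb of a coding start, and in the other lines the share ran from 38.0% in a PC-3 library to 65.1% in an HCT-116 library. The groups did not overlap, and the means differed by 23.4 percentage points (31.2% ± 0.477 in A549, SD, n = 2, and 54.6% ± 11.7 in the others, n = 6). By exact permutation of all 28 choices of 2 libraries among 8 (two-sided) the p was 0.036, the smallest this design can give, and 0.083 after Benjamini-Hochberg adjustment over 7 measures, which does not pass 0.05. After this adjustment a measure at the smallest p can pass only if most of the 7 reach it too, so the failure to pass says little of the difference. The 2 libraries of a line are not separate lines, so the p describes libraries and not cancers of different origin.

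Peaks more than 25 kb from every coding start made up 40.6% and 39.6% of the A549 lists and 18.3% to 36.3% of the others, a difference of 14.3 percentage points (exact permutation p = 0.036, adjusted p = 0.083). Median distances were 14878 and 13337 bp in the A549 libraries and at most 9750 bp elsewhere (exact permutation p = 0.036, adjusted p = 0.083). PC-3 was the nearest line in each of these measures. GC content of the central 200 bp of peaks moved with them, at 54.8% and 55.3% in A549 and 55.4% to 63.4% in the others (exact permutation p = 0.071, adjusted p = 0.12), and its part in the difference was not tested. With only the 1000 highest-scoring peaks of each library the difference in the promoter share was as large, at -23.5 percentage points.

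**Figure D2:**
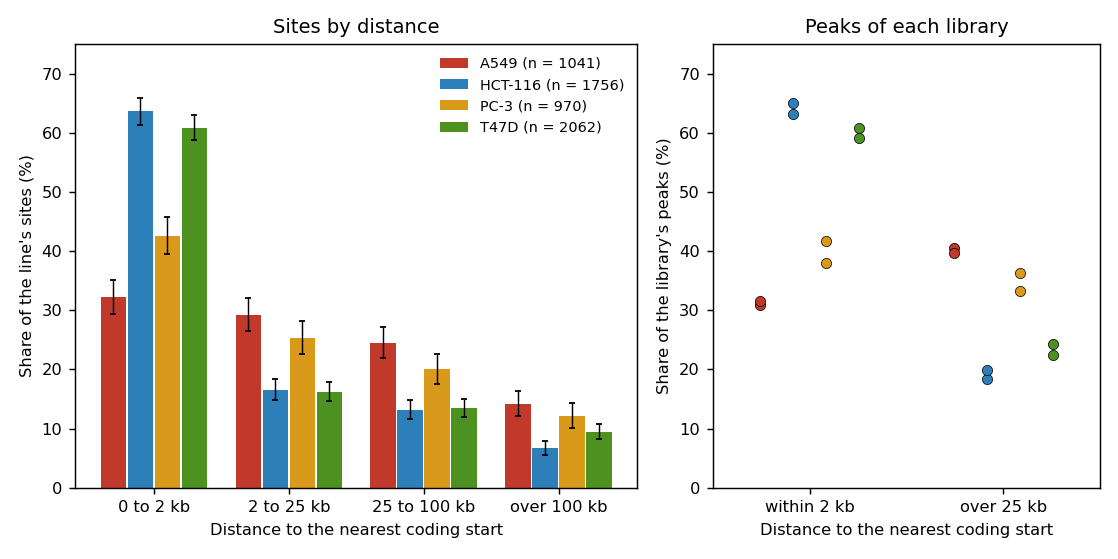
Left, the share of each line's sites (vertical axis, %) by distance to the nearest coding start, with 95% exact binomial intervals as error bars. Right, the share of each library's peaks within 2 kb and over 25 kb, 1 point per library, where the A549 libraries are the lowest for promoters (30.9% and 31.6%) and the highest over 25 kb (40.6% and 39.6%).

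The highest-scoring A549 site covered the start of GPI, the second enzyme of glycolysis, with a score of 3100 in both replicates. Other glycolytic enzymes followed, with ENO1 (enolase) at 2150 and 1897 in replicates 2 and 3, GAPDH at 2393 and 1420, ALDOA (aldolase) at 1680 and 1290, and LDHA, which turns pyruvate into lactate, at 1761 and 1051. Each of these sites covered the gene's start and had a site in all 3 other lines. The monocarboxylate exporter SLC16A3 (1393 and 1172) was bound at its start as well, so the enzyme that makes lactate and the transporter that exports it both ranked among the first 25.

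Of the 25 sites of highest mean score, 11 covered a coding start, 6 lay more than 25 kb from one, and 19 had a site in all 3 other lines. Regulators among them were KDM3A, a histone H3K9 demethylase (1917 and 1594), BHLHE40, a transcriptional repressor with sites at its start (2447 and 1506) and 6006 bp away (1996 and 1254), and ANKRD37 (1559 and 1060). ADM, the vasodilator adrenomedullin, was bound 1686 bp from its start (1623 and 1230), and DDIT4 12040 bp away (2267 and 1238). FAM174B (2063 and 1932), SEMA4B (1790 and 1308), NARF (1611 and 1430), SNAPC1 (2248 and 1431, 10437 bp away), KLHDC4 (1738 and 882, 23192 bp away) and DNAH17 (1625 and 876, 14442 bp away) were also in the group. DNAH17 was the only one of the 25 with no site in another line, although 1 of the 6 other libraries had a peak there. The KLHDC4 region was shared with T47D alone.

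Distant sites held several of the highest ranks. The second highest site lay 101114 bp from the start of ARRDC3, an arrestin-domain protein, with scores of 2512 and 1797. The third, at 2245 and 1917, lay in an intron of the annotated SLC2A3 gene, which encodes the glucose transporter GLUT3, 34087 bp from its nearest coding start. Sites 104932 bp from AC092291.2 (2508 and 1540), 104906 bp from SLC45A1 (2453 and 1353), 55783 bp from IGFBP3 (2220 and 1547) and 71985 bp from NDRG1 (1789 and 1344) were also in the first 15. The nearest gene on the sequence need not be the gene that a distant site acts on, and these lists hold no contacts between sites and promoters.

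Below these came a site 49523 bp from LIF (1787 and 624), sites 108413 bp (949 and 833) and 111964 bp (965 and 468) from EGLN3, another 115059 bp from SLC45A1 (885 and 834), and one 74583 bp from PFKFB3 (865 and 723). ERGIC1 (847 and 624, 33714 bp) and LPCAT1, an enzyme of surfactant phospholipid synthesis (815 and 646, 43949 bp), had a site in PC-3 and in no other line. Of the 100 highest A549 sites, 33 lay over 25 kb from a coding start (exact binomial interval of the share 23.9 to 43.1%), against 38.6% of all A549 sites.

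The A549 sites were divided by mean score into 4 bins of 260 or 261 sites. The share within 2 kb of a coding start was 29.5% in the highest bin, 29.2% and 35.0% in those between, and 35.0% in the lowest. The share with a site in all 3 other lines went in the same order from 34.5% through 21.2% and 19.6% to 13.8%, and the share with no peak in any other library went from 17.6% through 27.7% and 32.7% to 36.5%. These bins share their libraries and were not tested.

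Sharing with the other lines was uneven. Of the 1041 A549 sites, 443 (42.6%) had no site of another line, 195 had one in a single other line, 171 in a pair and 232 (22.3%) in all 3. The overlap with HCT-116 took in 466 A549 sites, which is 44.8% of the A549 sites and 26.6% of the HCT-116 sites. For PC-3 the overlap was 38.9% of A549 and 41.8% of PC-3 sites, and for T47D 34.8% of A549 and 17.6% of T47D sites. A549 sites found in all 3 other lines lay within 2 kb of a coding start in 70.3% of cases.

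By contrast, 298 A549 sites overlapped no peak in any of the 6 other libraries, and 30 of these (10.1%, 6.90 to 14.1%) lay within 2 kb of a coding start and 159 (53.4%, 47.5 to 59.1%) more than 25 kb away. Their median distance was 30565 bp. Their median rank was 618.5 of 1041, against 399.5 for sites found in all 3 other lines, and their best rank was 42. Peaks of the other lines that fell below the limit of the caller are not in the lists, so these sites are those without a called peak and not those without binding.

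The highest of the 298 lay 67755 bp from WDR72 and scored 793 and 819. Next were the EGLN3 site at 111964 bp, a site 59600 bp from PON1, a paraoxonase of lipoproteins, inside an intron of PPP1R9A (840 and 567), and one 8144 bp from CCR7, a chemokine receptor (849 and 453). PDE10A had a site at its start (732 and 385). EFNA5, an ephrin (mean score 540, 304126 bp away), DAPK1, a kinase of cell death (626 and 424, 123982 bp), UACA (613 and 380, 24349 bp), MAFK, a small Maf protein that dimerises with NRF2 (646 and 324, 9001 bp), and HIP1 (623 and 296, 61906 bp) followed. SBK2 (623 and 263), TNS1, the adhesion protein tensin (345 and 526), PDE7B (511 and 319) and 2 PDE4D sites (512 and 374, and 497 and 331) made up the 15 highest. Replicate 2 had the higher score at all 15 except WDR72 and TNS1.

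Some genes were nearest to several A549 sites. Of the 865 nearest genes, 734 had 1 site, 100 had 2 and 31 had 3 or more, and those named here were chosen after these counts were seen. PDE4D, which degrades cyclic AMP, had 6 sites with mean scores from 60.0 to 443, between 21921 and 107636 bp from a coding start. None of the 6 overlapped a peak of any other library, and the other lines had no site nearest to PDE4D. The gene is 1553083 bp long and held the centre of 5 of the 6 sites. SIK1, a salt-inducible kinase (mean scores 155 to 303), and NRP1, the co-receptor neuropilin (66.1 to 175), had 3 sites each, all with no peak elsewhere.

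AOPEP had 5 sites, 3 of them with no peak elsewhere, and 3 sites in T47D. BHLHE40, SLC45A1, NDRG1, EGLN3, PFKFB3 and ELF3 had 4 each, and all 6 of these genes also had sites in at least one other line. Taken by symbol, the cyclic nucleotide phosphodiesterases were the nearest genes of 12 A549 sites. The 6 genes were PDE10A, PDE11A, PDE4B, PDE4D, PDE7B and PDE9A, 27.3% of 22 such genes in the annotation against 4.37% of all coding genes, and PDE4D alone gave 6 of the 12 sites. No peak elsewhere was overlapped by 11 of the 12, against 28.6% of all A549 sites. Of 8 other families counted by symbol, the share of genes nearest to an A549 site was higher for lysine demethylases (6 of 20), and was 13.3% for symbols starting with ITG, 12.5% for dual-specificity phosphatases, 5.63% for solute carriers and 1.25% to 4.17% for the rest. The phosphodiesterases and the other families were chosen after the sites were seen. HCT-116, PC-3 and T47D each had 2 phosphodiesterase genes among their 1575, 894 and 1796 nearest genes (0.127%, 0.224% and 0.111%). In A549 the share was 0.694%. The part of gene length in these counts was not tested.

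Gene lists were used to read the sites by function. A gene counted as reached where a site lay within 25 kb of one of its coding starts, which in A549 held for 910 of 19794 coding genes (4.6%). The scores given for a list gene are those of its highest-scoring site within 25 kb, which need not lie at its start. Of 87 genes on 8 lists of the hypoxia response, 52 were reached in A549. HCT-116 reached 56 (background 11.9%), PC-3 49 (background 5.56%) and T47D 54 (background 13.3%). HIF targets are the textbook content of these lists, and no test of the lists was made.

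Glycolysis and glucose uptake were reached at 17 of 20 genes in HCT-116, 17 in PC-3 and 18 in T47D. A549 reached 17 as well, 16 of them within 2 kb, where the background over coding genes was 1.87%. Beside the enzymes named above these were PGK1 (1366 and 947), PGAM1 (867 and 953), PKM (988 and 818), and the bifunctional regulators PFKFB4 (679 and 541) and PFKFB3 (495 and 961), each of rank 28 to 76. SLC2A1, the glucose transporter GLUT1, scored 362 and 233 at a site 3390 bp away, and PFKP 176 and 166 at a site 12607 bp away. TPI1 (275 and 142) and PFKL (194 and 160) were bound at their starts. HK2, the hexokinase that opens the pathway, had a weak A549 site of rank 591 (94.3 and 149), and ALDOC (88.0 and 79.9) and ENO2 (141 and 99.4) were weak too. HK1 had a site in each other line and none within 25 kb in A549, and SLC2A3 and PFKM were not reached.

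At genes of mitochondrial adaptation, 6 of 10 were reached in A549 and 6 in each other line. All coding genes were reached at 4.6% in A549, 11.9% in HCT-116, 5.56% in PC-3 and 13.3% in T47D. Each of the 6 A549 genes had its site at its start. PDK1, a kinase that inhibits pyruvate dehydrogenase, scored 963 and 1017, BNIP3L 339 and 1072, MXI1 333 and 348, LONP1 249 and 209, BNIP3 88.0 and 222, and PDK3 59.0 and 75.9. Among genes of oxygen sensing 3 of 10 were reached in A549, namely EGLN3 (1484 and 1143), CITED2, an inhibitor of p300 recruitment (518 and 377), and EGLN1 (71.6 and 279). None of EGLN2, HIF1AN, VHL, ARNT, HIF1A, EPAS1 and HIF3A was reached within 25 kb in A549. HCT-116 reached 4 of these 10 genes, PC-3 2 and T47D 3.

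JmjC demethylases, which use oxygen as a substrate, were reached at 5 of 10 genes in A549 (4.6% of all coding genes were). HCT-116 reached 6 (11.9%), PC-3 6 (5.56%) and T47D 8 (13.3%). In A549, KDM3A and KDM4B (784 and 766) had strong sites, and KDM4C (235 and 148), KDM6B (152 and 142) and KDM5B (81.0 and 126) weaker ones. Of 6 genes of pH control, A549 reached 4 (4.6% of all coding genes were), HCT-116 5 (11.9%), T47D 2 (13.3%) and PC-3 1 (5.56%). With a window of 2 kb A549 reached 2. The carbonic anhydrases CA12 (445 and 245, 8482 bp from a start) and CA9 (190 and 208, at its start) were among the 4. The others were SLC16A3 and its chaperone BSG (66.3 and 65.5, 14679 bp away). CA12 had a site in HCT-116 but in neither PC-3 nor T47D.

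Secreted factors were reached at 6 of 12 genes in HCT-116 (11.9% of all coding genes were), 4 in PC-3 (5.56%) and 6 in T47D (13.3%). In A549, where 4.6% of all coding genes were reached, 5 of the 12 were. Among them were ADM, STC2 (688 and 558), ANGPTL4 (289 and 175) and PDGFB (88.4 and 98.8). VEGFA, the main angiogenic factor of the response, had no A549 site within 25 kb, and the nearest lay 101318 bp from its start. Matrix enzymes were reached at 6 of 9 in A549, of which PLOD2 (878 and 766), P4HA1 (679 and 687) and LOXL2 (792 and 480) scored highest. HCT-116 reached 7 of the 9, PC-3 7 and T47D 6. On the list of stress genes and repressors, 6 of 10 were reached in A549, 5 in HCT-116, 6 in PC-3 and 5 in T47D. PPP1R3C, a glycogen-targeting subunit of a phosphatase, had a site at its start in A549 (855 and 797) and T47D and none in HCT-116 or PC-3.

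Outside the hypoxia lists, A549 reached 3 of 14 NRF2 targets, which guard against oxidative stress, and 4.6% of all coding genes. These targets were TXNRD1 (312 and 196), HMOX1 (145 and 69.8) and GCLC (126 and 62.9), and HMOX1 and GCLC had no site within 25 kb in another line. Only 1 was reached with a window of 2 kb, and 1 with the higher-scoring 50% of each list. HCT-116 reached 1 of the 14 (11.9% of all), PC-3 1 (5.56%) and T47D 2 (13.3%). Adhesion and cytoskeletal genes were reached at 6 of 14 in A549 (4.6% of all coding genes were) and at 2 of 14 with a window of 2 kb. HCT-116 reached 7 (11.9% of all), PC-3 3 (5.56%) and T47D 1 (13.3%). The A549 genes were the integrin subunits ITGB1 (699 and 347) and ITGA5 (206 and 162), the receptor kinases AXL (547 and 322) and EGFR (163 and 82.6), S100A10 (153 and 100) and CAV1 (85.6 and 105).

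Of 9 targets of the aryl hydrocarbon receptor, another partner of HIF-1β, 3 were reached in A549 (4.6% of all coding genes were). UGT1A6, a glucuronosyltransferase (225 and 274), had a site in A549 and in no other line, and CYP1B1 (86.9 and 107) and NFE2L2 (161 and 55.3) were the others, while CYP1A1 was not reached. None of 10 clock genes was reached in A549 (4.6% of all coding genes were), and 4 were in HCT-116 (11.9% of all), 2 in PC-3 (5.56%) and 3 in T47D (13.3%). With a peak of either replicate 1 was reached in A549, and within 100 kb 3 were.

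Markers of cell type were reached in A549 at 2 of 30 genes (6.67%), against 4.6% of all coding genes. None of 12 markers of alveolar type II cells, the lung cell type that A549 is often used to model, had an A549 site within 25 kb. The closest was LPCAT1, with a site 30894 bp away, and the surfactant genes SFTPC and SFTPB had their nearest sites 51804 and 72591 bp away. With a peak of either replicate 1 of the 12 was reached, and within 100 kb 3 were. Of the markers of the other tissues, KRT8 (of 6 luminal breast genes) and VIL1 (of 6 intestinal genes) were reached in A549, and none of 6 prostate genes was. Binding lists do not measure expression, so the identity of the line could not be checked from them beyond its label.

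Motifs were counted in the central 200 bp of each site, on both strands, and in windows of the same length 5 kb to each side. ACGTG was present in 53.9% of A549 sites and 9.51% of the flanking windows, GCGTG in 33.2% and 15.3%, and either in 71.1% and 23.4%. ACGTG was as frequent at A549 sites over 2 kb from a start (53.7%) as at those within 2 kb (54.3%), whereas GCGTG was present in 27.5% of the former and 45.4% of the latter. GC content of the central window was 63.6% at sites within 2 kb and 51.4% at the others, and the part of base composition in this was not tested.

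The position of the core was read over the whole site, where 1002 of 1041 held at least one core. The one nearest the centre was 49 bp away in the median and within 100 bp in 746. Neither value was set against flanking regions, and in a site with several cores only the nearest was kept, which shortens the distance. This nearest core was ACGTG in 622 and GCGTG in 380. At the 746 cores within 100 bp of the centre, the letter before the core was T in 42.8%, and the most frequent form with 1 letter on each side was TACGTGC (118), ahead of TACGTGA (72) and GACGTGC (54). TACGTGC was present in the central window of 13.7% of A549 sites and 0.192% of the flanks. Its share was 16.1% in the bin of highest score and 10.0% in the lowest. It was 13.7% in PC-3, 8.26% in HCT-116 and 6.89% in T47D.

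TGANTCA, the motif of AP-1 factors, which are dimers of Fos and Jun proteins, was present in 23.9% of A549 sites and 5.19% of flanks. It was more frequent among sites over 2 kb from a start (29.6%, flanks 5.17%) than within 2 kb (11.9%, flanks 5.22%). At the more distant sites of the other lines it was present in 179 of 639 in HCT-116, 155 of 557 in PC-3 and 67 of 807 in T47D (8.30%). Of the 298 A549 sites with no peak elsewhere 26.5% held it, and of the 232 sites found in all 3 other lines 7.76%. The core was present in 64.4% and 75.9% of these. Of the same groups 10.1% and 70.3% lay within 2 kb of a coding start, and the part of distance in these shares was not tested. A match does not show that a factor was bound, and no match says only that these letters are not in the window.

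Over libraries, TGANTCA was present in 28.7% and 28.8% of the A549 peaks over 2 kb from a start and in 7.26% to 31.4% of those of the other lines (difference of means 7.79 percentage points, exact permutation p = 0.36, adjusted p = 0.50). The core was present in 63.6% of the peaks of A549 replicate 2 and 75.4% of those of replicate 3, and in 60.1% to 73.1% of those of the other 6 libraries (difference of means 2.88 percentage points, exact permutation p = 0.50, adjusted p = 0.50). Among peaks over 2 kb from a start the core was present in 59.1% and 72.5% in A549 (difference of means 4.22 percentage points, exact permutation p = 0.50, adjusted p = 0.50). The groups overlapped in these 3 measures.

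**Figure D3:**
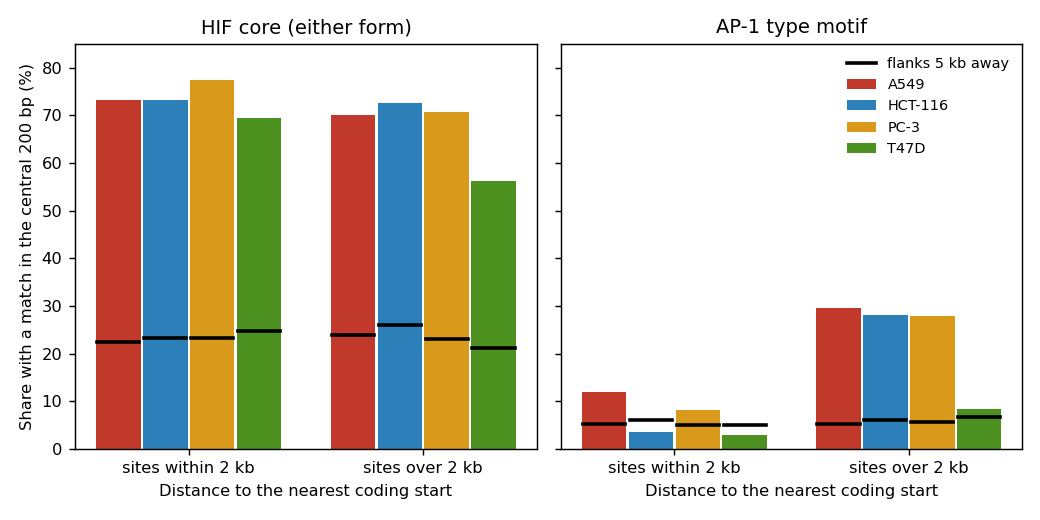
Bars give the share of sites (vertical axis, %) with a match in the central 200 bp, by line and distance to the nearest coding start, and black lines give the share in windows 5 kb away. The HIF core stands near 70% in A549 in both classes, and the AP-1 type motif stands at 11.9% of A549 promoter sites and 29.6% of those farther away, with T47D the lowest (8.30%).

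A common set of regions allowed ranks to be compared. A peak was present in all 8 libraries at 233 regions, 167 of them within 2 kb of a coding start, and each library's scores were ranked over these from 1 for the highest. Both A549 ranks were nearer 1 than all 6 others at 39 regions (16.7%) and farther from 1 than all 6 at 34 (14.6%). Among the 47 regions whose nearest gene is on a hypoxia list the numbers were 12 and 7. The same counts were not made with another line in the place of A549, so how usual they are for a line is not known. Genes named from this comparison were chosen after the ranks were seen, and ranks within a library do not tell whether binding itself was stronger or weaker.

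The regions that ranked nearer 1 in A549 were led by ELF3, an epithelial transcription factor, with ranks of 50 and 63 in A549 and 175 to 231 elsewhere. DNAJB12 (44 and 55, elsewhere 138 to 230), TXNRD1 (79 and 102, elsewhere 154 to 232), BCL3 (28 and 42, elsewhere 59 to 227) and ID1 (23 and 45, elsewhere 65 to 199) were also among them. Genes of low-oxygen response nearest to regions in this group included PFKP, ANGPTL4, BNIP3L (57817 bp away), EGLN3 (108413 bp) and STC2 (125664 bp), with SLC2A1 at a region 2671 bp from its start (73 and 86, elsewhere 127 to 191), ADM (15 and 15, elsewhere 24 to 158), both BHLHE40 regions, the region of SLC2A3, that of ARRDC3 (2 and 5, elsewhere 31 to 84) and GPI. Of the 39 regions, 17 lay within 2 kb of a coding start and 10 more than 25 kb away. GPI ranked first in both A549 libraries and from 2 to 7 in the others, where several regions can share a score near the top and so a rank. Scores stopped close to 3100, which 13 regions reached in at least one library. Without these, 37 of the remaining 220 regions ranked nearer 1 in A549 and 30 farther from 1.

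The 34 regions that ranked farther from 1 in A549 lay within 2 kb of a coding start in 29 cases and over 25 kb away in 2. The widest gaps were at the promoters of FEM1C (180 and 218, elsewhere 32 to 120), CTDP1 (172 and 228, elsewhere 63 to 87) and HK2 (127 and 190, elsewhere 37 to 50). AK4, a mitochondrial adenylate kinase (62 and 75, elsewhere 7 to 29), P4HB (154 and 154, elsewhere 51 to 113), PFKFB4 (47 and 48, elsewhere 7 to 24), LONP1 (92 and 97, elsewhere 33 to 57), PDK1 (21 and 29, elsewhere 7 to 12) and ANKRD37 (17 and 19, elsewhere 1 to 7) were of the same kind, as were P4HA1 and the region at the start of STC2 (45 and 46, elsewhere 17 to 26). For SLC2A1 the region at the start itself ranked 134 and 230 in A549, within or beyond the 75 to 187 of the others, while the region 2671 bp away ranked nearer 1 than in every other library.

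**Figure D4:**
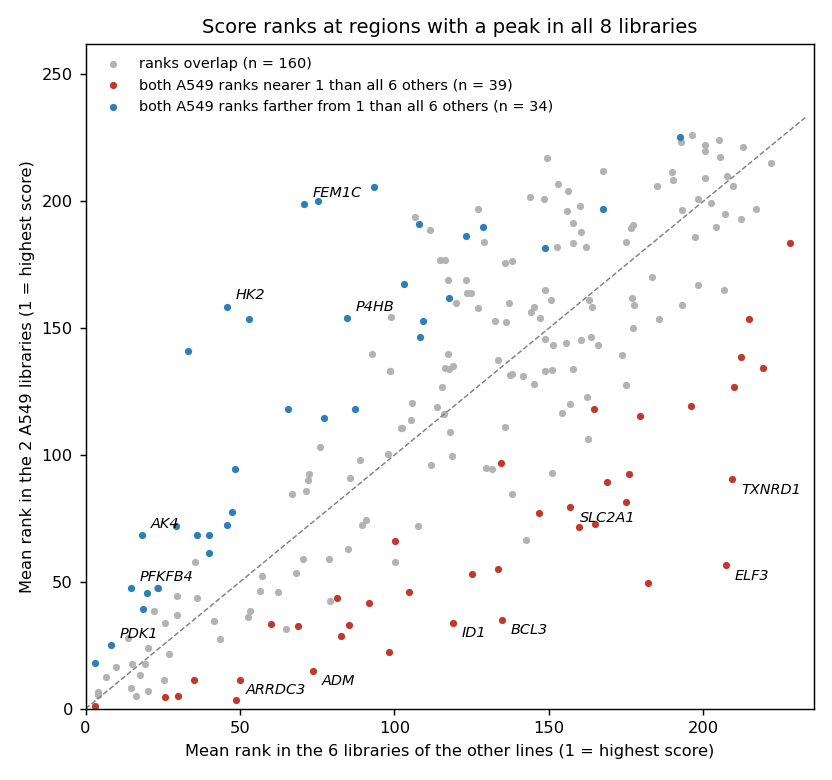
Each point is 1 of the 233 regions with a peak in all 8 libraries, with its mean rank in the 6 other libraries on the horizontal axis and in the 2 A549 libraries on the vertical axis (1 is the highest score). Red points (39) ranked nearer 1 in both A549 libraries than in all others, as at ELF3 and ADM, blue points (34) farther from 1, as at HK2 and FEM1C, and grey points (160) overlapped.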

How the data were processed

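HIF-1β ChIP-seq was analysed in 8 libraries, 2 of each of 4 cell lines. Per the labels, reads were trimmed with Trim Galore 0.3.3, aligned to GRCh37 (hg19) with BWA 0.7.5a-r405 and handled with SAMtools 0.1.19, Picard 1.106 and bedtools 2.17.0, and peak calling was done by the authors with MACS, library by library (version not given in the sources used here). The deposited lists give each peak an interval and a score, which has no stated unit, so scores were compared only as ranks or within A549. A step with a further peak caller named in the study's methods cannot be seen in the lists. Depth is unknown.

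Peaks of both replicates with an overlap of 1 bp or more formed sites. Those on the 24 main chromosomes were used for distances, overlaps and motifs. A site's score in a library is that of its highest peak. Distances were taken to starts of 19794 protein-coding genes (GENCODE release 44 on GRCh37). Library measures were compared by exact permutation over 28 choices, adjusted over 7 measures. Genes named were the nearest to the 25 highest A549 sites, the 15 highest over 25 kb and the 15 highest with no peak elsewhere, and the members of 16 lists (164 genes). Some genes that this rule or the counts would name are not reported here. The members and lists were chosen with earlier results of these data known. Alternatives varied the overlap, the window, the score limit, the gene set and the replicates. Site building, motif search and permutation were tested on simulated data, with Python 3.11.15, NumPy 2.4.6, pandas 2.3.3, SciPy 1.17.1, pysam 0.24.0 and Matplotlib 3.10.9.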

Additional observations from a re-analysis of the deposited data

How the results depend on the processing

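The number of A549 sites was 1993 with a peak of either replicate, 568 with the higher-scoring 50% of each list, and 1270 to 1767 when a replicate was left out (1767 without replicate 3). The promoter share of 32.2% became 27.4% with a window of 500 bp, 37.8% with 5 kb and 47.3% with the starts of all genes, and 30.9% to 31.6% when a replicate was left out. The 443 sites with no site of another line became 251 with the higher-scoring 50% and 587 to 929 when a replicate was left out (929 without replicate 3). Agreement of scores was 0.847 as a Pearson correlation of log10 scores. The difference in the core share, 2.88 percentage points, ran from -3.06 (without A549 replicate 3) to 8.82, and among distant peaks from -2.47 (without A549 replicate 3) to 10.9. Regions ranked nearer 1 in A549 numbered 55 to 60 and those farther from 1 47 to 63 when a replicate was left out, and 37 and 30 without regions at a score of 3100 or more, alternatives chosen after seeing the data. By construction a single list has more sites and more regions outside the range of the others. For the remaining changes the cause was not tested. The differences in promoter share and distance kept their direction under all alternatives run, and the adjusted p of a library measure stayed above 0.05. With an A549 replicate left out or with the block the smallest p that can be had is too high to pass, so those say nothing of stability. In the other settings a library measure can pass only if most of the measures reach the smallest p together.

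With a replicate block, which compared libraries of the same number, the difference in the promoter share was -27.3 percentage points (exact permutation p = 0.125, the smallest that fit allows). Replicate 3 exists for A549 and HCT-116 only, so in that block the comparison was with HCT-116 alone (63.1% of its replicate 3 peaks within 2 kb of a coding start). The block difference therefore leans on HCT-116 and is not of the same make-up as the main one. Whether equal numbers mark shared experiments is not stated. Deviations of same-numbered libraries correlated at 0.874 to 0.938 over the 7 measures among A549, HCT-116 and PC-3 and at -0.94 to -0.691 with T47D, and with 2 libraries a line these deviations mirror each other, so the sign carries little. The lists hold no reads, so a region without a peak may still have been bound.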
